A study of Mus musculus with 9 samples.

Results

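Mir17hg, the host gene of the miR-17-92 microRNA cluster, and 7 mRNAs known as targets of that cluster (Bcl2l11, Tgfbr2, Thbs1, Rbl2, E2f1, Bmpr2 and Stat3) were examined in whole-tumor RNA-Seq of spontaneous mouse osteosarcomas. The 8 genes were found by their symbols among the 55367 genes of the deposited count table, and all 8 passed the filter on low counts that left 15365 genes for testing. The p53-driven tumors (n = 4, columns F187, F325, F331 and F368) came from Col2.3-Cre/TrpP53fl/+ mice, in which an osteoblast promoter drives Cre and 1 Trp53 allele is floxed. The Myc-knockin tumors (n = 5, columns M351, M408, M9, M624 and M664) carried the same floxed allele and, in addition, a c-MycT58A transgene behind a Lox-Stop-Lox cassette that Cre removes. The F and M columns were read as these groups; each tumor is named by its column, since the columns could not be tied to single sample titles. Tumors were bulk tissue, so that fewer cells of a type and less RNA per cell cannot be told apart. Nothing in the labels ties tumors to separate mice, and the p-values measure the spread between these tumors.

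The cluster is transcribed as 1 long RNA, whose hairpins are cut out by Drosha and Dicer and loaded as mature microRNAs on Argonaute proteins. Bases 2 to 8 of a microRNA, its seed, pair with sites in the 3' UTR of an mRNA, which lowers the stability or the translation of that mRNA. MYC is known to activate transcription of the cluster, and the cluster is known for holding down an apoptosis inducer (Bcl2l11, which encodes BIM), receptors of the TGF-β and BMP pathways, the secreted matrix protein thrombospondin 1 and regulators of the cell cycle.

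The seeds decide which targets each microRNA can pair with, so the mature sequences are shown first (RefSeq, GRCm38.p6, 5' to 3', seed in capitals). All 6 hairpins lie on the plus strand within 836 bp of chromosome 14, chr14:115043671-115044506, inside exon 2 of Mir17hg (chr14:115042879-115046727, GRCm38). The 6 sequences fall into 4 seed groups, with miR-17-5p and miR-20a-5p sharing 1 seed and miR-19a-3p and miR-19b-3p sharing another.
miR-17-5p: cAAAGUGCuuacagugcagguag
miR-20a-5p: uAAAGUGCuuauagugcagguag
miR-18a-5p: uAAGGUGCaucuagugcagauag
miR-19a-3p: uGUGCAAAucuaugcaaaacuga
miR-19b-3p: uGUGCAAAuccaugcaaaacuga
miR-92a-3p: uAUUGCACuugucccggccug

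The 3 microRNAs of a paralog cluster within the gene Mcm7 on chromosome 5 carry the miR-17/20a or the miR-92a seed as well, and are shown because a target site cannot tell them from the members of the miR-17-92 cluster.
miR-106b-5p: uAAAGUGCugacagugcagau
miR-93-5p: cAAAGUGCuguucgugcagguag
miR-25-3p: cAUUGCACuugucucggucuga

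Each of the 7 targets held at least 1 7-base match to a seed of the cluster in its longest annotated 3' UTR, with 22 matches in all. The letters searched, on the transcript strand only, were GCACTTT for miR-17/20a, GCACCTT for miR-18a, TTTGCAC for miR-19 and GTGCAAT for miR-92a. Among 13219 tested genes with an annotated 3' UTR, 14.7%, 9.48%, 13.7% and 7.88% held these matches, and 34.3% held at least 1 of them. The miR-17/20a match was present in 6 of the 7 targets, and Thbs1 held a miR-18a match only. In Tgfbr2 and Bmpr2 the miR-19 and miR-17/20a matches overlapped in 1 run of 10 bases, TTTGCACTTT, which 0.878% of the 3' UTRs contained. The sites below are written 5' to 3' on the transcript, with the match in capitals; positions are GRCm38.
Tgfbr2, miR-19 and miR-17/20a, chr9:116090066-116090091, minus strand: caataacgTTTGCACTTTattaatgc
Bmpr2, miR-19 and miR-17/20a, chr1:59870675-59870700, plus strand: ttttaagtTTTGCACTTTtgtttagt
Stat3, miR-17/20a, chr11:100888534-100888556, minus strand: caatctggGCACTTTttaaaata
Stat3, miR-17/20a, chr11:100888287-100888309, minus strand: ctggctctGCACTTTcaaccttg
Rbl2, miR-17/20a, chr8:91123143-91123165, plus strand: aattggtgGCACTTTatggctgt
Rbl2, miR-17/20a, chr8:91123204-91123226, plus strand: ttatgatgGCACTTTctatggtg
E2f1, miR-17/20a, chr2:154560204-154560226, minus strand: ctctaactGCACTTTtggtgtcc
Bcl2l11, miR-17/20a, chr2:128159770-128159792, plus strand: gtggaggaGCACTTTctaacctg
Thbs1, miR-18a, chr2:118125056-118125078, plus strand: ctggcaatGCACCTTctaaaaac
Csf1, miR-17/20a, chr3:107742086-107742108, minus strand: tgcatcttGCACTTTgacattcc

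The Csf1 site, which is not in the list of 7, is shown because Csf1, the macrophage growth factor, is the mRNA that the study followed as a target of miR-17/20a. Its match covered bases 1059 to 1065 of the 3' UTR. A match is a description of the letters in a window, not a measured site.

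Total counts ran from 2716322 to 17073285 per tumor, and they bear on the member of lowest level, Mir17hg. Satellite-repeat genes took 44.3%, 67.9%, 23.2% and 81.0% of the counts in F187, M351, M408 and M9, and at most 0.0242% in the others. Chemosensory receptor genes, which bone tumors are not known to use, gave 0.714, 1.13 and 1.25 counts per kb of exon in F187, M351 and M9 and at most 0.152 in the other tumors. Rn7sk, an abundant small nuclear RNA, had 91 and 147 counts in M624 and M664 against 11785 or more in the others. Those 2 libraries thus stand apart, and log2 fold changes of the 8 genes are given with and without them. Every Myc-knockin library had either a large share of satellite reads or almost no Rn7sk, while F325, F331 and F368 had neither feature. Levels are CPM, counts scaled by library size, after TMM normalization, and log2 fold changes are Myc-knockin over p53-driven from edgeR's quasi-likelihood test. A gene was called when its Benjamini-Hochberg adjusted p over all tested genes was under 0.05 and its fold change over 1.5. By this rule 5.27% of the tested genes were called, 2.26% higher and 3.00% lower, and the groups did not overlap for 13.0%. The shares called higher and lower were 1.80% and 2.81% without M624 and M664 and 4.31% and 3.53% with the chemosensory level subtracted. They were 15.7% and 12.1% without the 4 libraries with satellite reads, and 10.1% and 7.30% with DESeq2. The fit without M624 and M664 keeps only Myc-knockin libraries rich in satellite reads. The fit without F187, M351, M408 and M9 sets F325, F331 and F368 against M624 and M664 alone. In both, library type and genotype cannot be fully told apart. Leaving out F325, F331 or F368 left 8, 6 and 5 calls among all genes and ended the calls of all 24 genes called among the 8 genes and the lists used here (edgeR adjusted p from 0.0619 to 0.186), with the sign unchanged.

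Myc was checked first, as the gene that defines the second group. Myc read 46.2, 43.5, 67.1 and 60.4 CPM in F187, F325, F331 and F368 and 270, 520, 144, 1045 and 905 CPM in M351, M408, M9, M624 and M664. The ranges did not overlap, and the log2 fold change was 3.41 (SE 0.59, edgeR adjusted p = 0.0217). Counts of Myc cannot separate the transgene from the gene itself.

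Mir17hg was higher in the Myc-knockin tumors. It read 0.790, 1.56, 5.88 and 2.67 CPM in F187, F325, F331 and F368, with 2.73 ± 2.24 CPM (SD, n = 4) as their mean. It read 12.3, 17.2, 7.17, 18.9 and 16.3 CPM in M351, M408, M9, M624 and M664, with a mean of 14.4 ± 4.70 CPM (SD, n = 5). Every Myc-knockin tumor was above every p53-driven tumor, as was the case for 5.41% of the tested genes, with F331 the highest of the one group and M9 the lowest of the other. The log2 fold change was 2.36 (SE 0.55), a 5.13-fold difference, with an edgeR adjusted p of 0.0392, and a two-sided exact permutation test over the 126 arrangements gave p = 0.0159, the smallest this design allows.

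The counts behind these values were small in 5 of the 9 libraries. Mir17hg had 20 counts in F325 and 22 in F368, against 68 to 496 in F331, M408, M624 and M664. It had 2 counts in F187, 20 in M351 and 9 in M9, where the level over chemosensory receptor genes would by itself give 2.52, 3.99 and 4.41 counts over its 3536 bases of exon. In F187 the count was thus below the 3-count floor of 1.18 CPM. With that level subtracted, the p53-driven tumors ranged from 0 to 5.87 CPM and the Myc-knockin tumors from 3.66 to 18.9 CPM, and the groups overlapped, M9 falling below F331. The fold change then was 2.43 on the log2 scale and was not called (edgeR adjusted p = 0.0574).

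Mir17hg had a log2 fold change of 2.19 without M624 and M664 (edgeR adjusted p = 0.0744), and an exact permutation test of the 7 remaining tumors gave p = 0.0571, the smallest it can give. Leaving out any 1 of the 8 tumors other than M9 ended the call (edgeR adjusted p from 0.0506 to 0.153), and without M9 it was 0.0251. Mir17hg was higher in the Myc-knockin tumors in all 20 alternative settings in which it was tested, with log2 fold changes from 2.09 to 3.06, and was called in 7 of them.

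**Figure D1:**
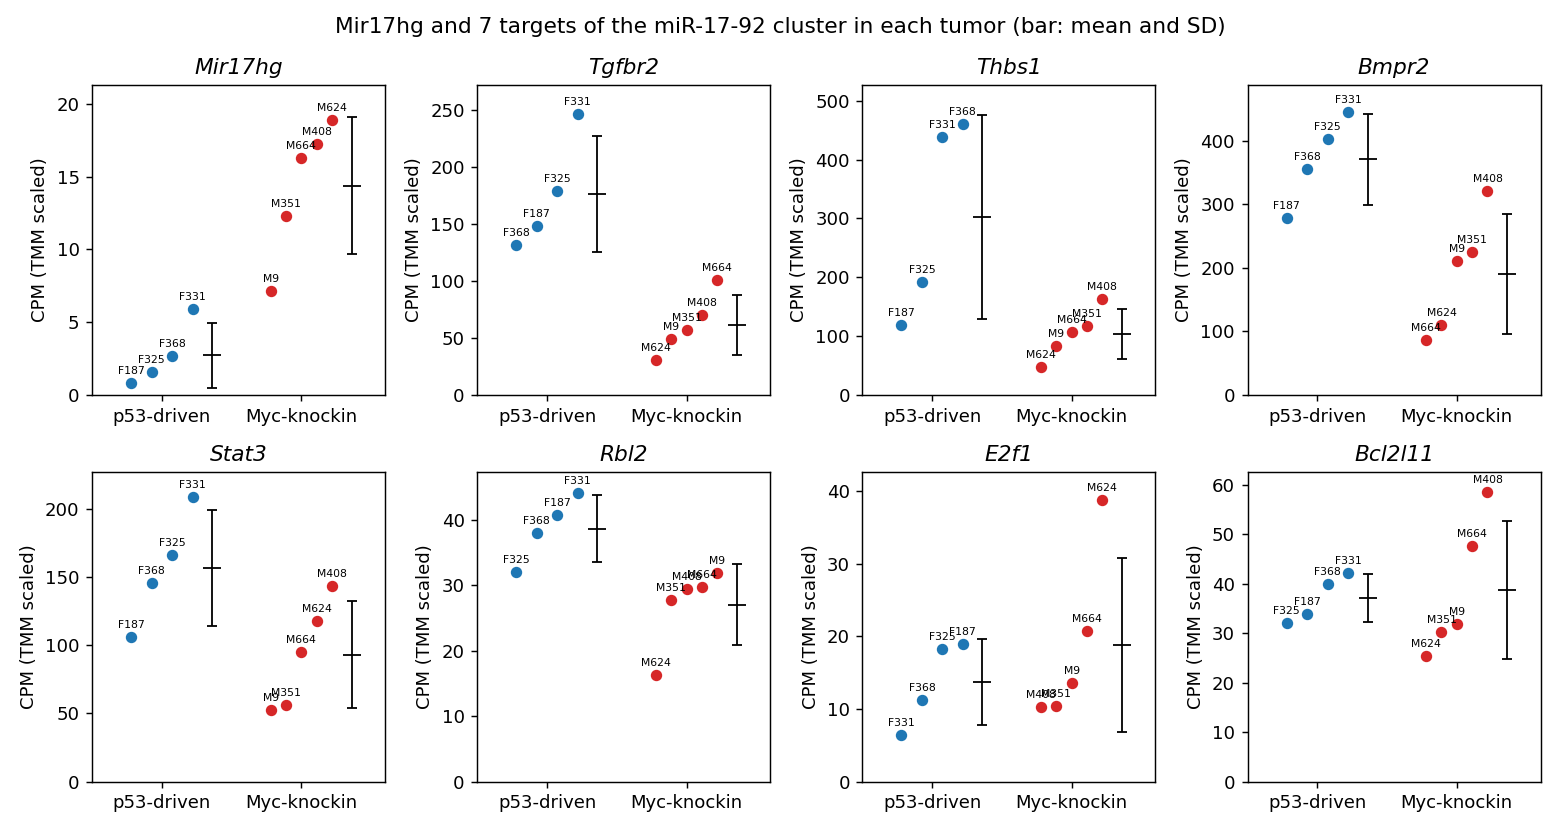
Level of each gene in each tumor, in CPM after TMM scaling; points are tumors (blue, p53-driven; red, Myc-knockin) and the bars beside them the mean and SD. The Mir17hg values from 7.17 to 18.9 in Myc-knockin tumors lie above the 0.790 to 5.88 of the p53-driven tumors, and the Tgfbr2 values lie in the opposite order.

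The hairpins themselves had no counts. In the table, the 6 hairpin genes of the cluster were at 0 in all 9 tumors, and of 15 hairpin genes of the cluster and its paralogs only Mir363 (6 counts) and Mir106b (1 count) had any. The hairpins take up 15.2% of the exon bases of Mir17hg and overlap it on the same strand, so that a read over a hairpin belongs to 2 annotated genes; how the counting treated such reads is not given in the sources used here. The table has no rows for mature microRNAs, and their levels were not measured here.

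Mcm7, a subunit of the replicative helicase and host of miR-106b, miR-93 and miR-25, was also higher. It read 23.7, 35.5, 20.8 and 17.9 CPM in F187, F325, F331 and F368 and 39.4, 67.9, 51.8, 195 and 93.4 CPM in M351, M408, M9, M624 and M664. The groups did not overlap, and the log2 fold change was 1.88 (SE 0.47, edgeR adjusted p = 0.0452). The call ended without M624 and M664 (edgeR adjusted p = 0.0648) and when F187, F325, F331, F368, M624 or M664 was left out (0.0535 to 0.186).

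Among the receptors, Tgfbr2 was lower in the Myc-knockin tumors. Tgfbr2 encodes the type II receptor that binds TGF-β and starts its signal. F187, F325, F331 and F368 had 149, 179, 246 and 131 CPM, and M351, M408, M9, M624 and M664 had 56.6, 70.5, 49.4, 30.5 and 101 CPM. The means were 176 ± 50.7 (SD, n = 4) and 61.5 ± 26.2 CPM (SD, n = 5), and every Myc-knockin tumor was below every p53-driven tumor, as was true of 7.54% of the tested genes. The log2 fold change was −1.52 (SE 0.36, edgeR adjusted p = 0.0392; exact permutation p = 0.0159). It was −1.52 without M624 and M664 as well (edgeR adjusted p = 0.0394), and −1.45 with the receptor-gene level subtracted (0.0311). It was not called without F187, M351, M408 and M9 (−1.48, edgeR adjusted p = 0.102), with library size alone (−1.57, 0.250) or with all genes of at least 1 count (−1.59, 0.0932). Leaving out M9 or M664 kept the call, and leaving out any other tumor ended it (0.0506 to 0.134).

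Bmpr2, the type II receptor for BMPs, carries the same run of 10 bases in its 3' UTR as Tgfbr2 but was not called. Its levels were 279, 403, 445 and 356 CPM in F187, F325, F331 and F368 and 225, 320, 211, 110 and 86.0 CPM in M351, M408, M9, M624 and M664. Only M408 reached into the p53-driven range, and M624 and M664 had the lowest values. Its log2 fold change was −0.96 (SE 0.40, edgeR adjusted p = 0.151). It was −0.49 without M624 and M664 (0.327) and −2.02 without F187, M351, M408 and M9 (0.0103), so its size rested on which of the libraries were kept.

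Thbs1, which encodes the matrix glycoprotein thrombospondin 1, an inhibitor of angiogenesis, had a fold change like that of Tgfbr2 but more spread between tumors. It read 119, 192, 438 and 461 CPM in F187, F325, F331 and F368 and 116, 163, 82.9, 47.0 and 108 CPM in M351, M408, M9, M624 and M664. F331 and F368 were high and F187 lay within the Myc-knockin range. The log2 fold change was −1.55 (SE 0.47, edgeR adjusted p = 0.0708), short of the call. Of 21 alternative settings 2 called it, DESeq2 (adjusted p = 0.0126) and edgeR without F187, M351, M408 and M9 (−2.21, adjusted p = 0.0358). It was not called without M624 and M664 (−1.25, edgeR adjusted p = 0.168) or by limma-voom (−1.09, limma-voom adjusted p = 0.148).

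Stat3, the transcription factor of IL-6 family signaling, read 106, 166, 208 and 146 CPM in F187, F325, F331 and F368. It read 56.0, 143, 52.6, 118 and 94.9 CPM in M351, M408, M9, M624 and M664. M408 and M624 lay within the p53-driven range and the other 3 Myc-knockin tumors below it. The log2 fold change was −0.75 (SE 0.35, edgeR adjusted p = 0.201), and −0.81 without M624 and M664 (0.258).

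Rbl2 encodes p130, a pocket protein that holds E2F factors inactive in resting cells. Its levels were 40.7, 32.0, 44.0 and 37.9 CPM in F187, F325, F331 and F368 and 27.7, 29.5, 31.9, 16.3 and 29.7 CPM in M351, M408, M9, M624 and M664. The groups did not overlap, but F325 at 32.0 CPM and M9 at 31.9 CPM were the nearest, and the log2 fold change of −0.52 (SE 0.26) was not called (edgeR adjusted p = 0.228). Rbl2 overlaps Aktip on the opposite strand, and whether reads were counted by strand is not given in the sources used here.

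E2f1, an activator of S-phase genes, and Bcl2l11, the BH3-only inducer of apoptosis, did not differ beyond the spread. E2f1 read 19.0, 18.3, 6.49 and 11.2 CPM in F187, F325, F331 and F368 and 10.5, 10.3, 13.5, 38.8 and 20.8 CPM in M351, M408, M9, M624 and M664. Its 2 highest values were those of M624 and M664, and its log2 fold change of 0.49 (SE 0.48, edgeR adjusted p = 0.544) turned to −0.21 without them (0.766) and was 1.33 without F187, M351, M408 and M9 (SE 0.50, 0.0888). Bcl2l11 read 34.0, 32.0, 42.2 and 40.0 CPM in F187, F325, F331 and F368 and 30.2, 58.6, 31.9, 25.5 and 47.7 CPM in M351, M408, M9, M624 and M664. The Myc-knockin tumors lay on both sides of the p53-driven range, and the log2 fold change was 0.07 (SE 0.29, edgeR adjusted p = 0.907). Without M624 and M664 it was 0.21 (edgeR adjusted p = 0.682).

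Over the 7 targets, 1 was called, lower, against 3.00% of the tested genes called lower. None was called higher, 5 of 7 log2 fold changes were negative, and their median was −0.75 beside 0.14 over all tested genes. That 0.14 covers all 3' UTR lengths, and genes with long 3' UTRs had lower fold changes. The 3' UTRs of the 7 targets ran from 1281 bases (E2f1) to 8529 (Bmpr2). In the third and the longest quartile of lengths, median log2 fold changes were −0.07 and −0.15 with any of the seed matches, and 0.09 and −0.02 without. The part of 3' UTR length was not tested. The groups did not overlap for 2 of the 7, against 13.0% of all. Scaling to library size alone, which moved the median of all tested genes to 0.03, left the sign of each of the 8 genes as it was and called none of them.

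**Figure D2:**
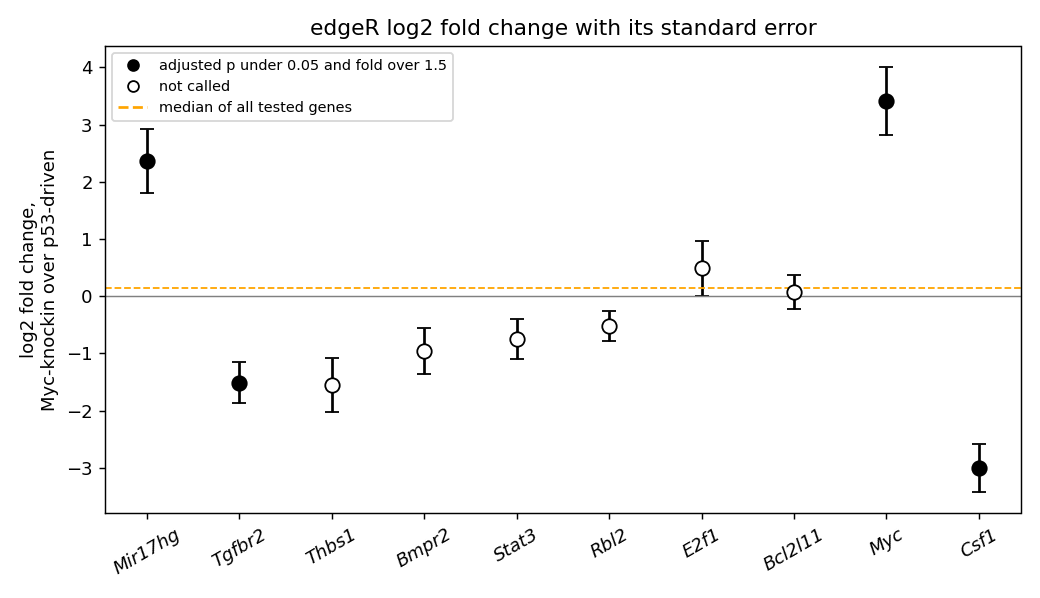
edgeR log2 fold change, Myc-knockin over p53-driven, with its standard error, for the 8 genes, Myc and Csf1; filled points were called, and the dashed line is the median of all tested genes. Mir17hg (2.36) and Tgfbr2 (−1.52) are the called points among the 8.

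Per kilobase of exon, the order of the 8 genes was not the same in the 2 groups. In p53-driven tumors, the mean levels per kb were 49.8 CPM for Thbs1, 21.5 for Tgfbr2, 20.6 for Bmpr2, 16.4 for Stat3, 5.12 for Rbl2, 4.62 for Bcl2l11, 4.35 for E2f1 and 0.771 for Mir17hg. The ranges of neighbours overlapped except between Stat3 and Rbl2 and between E2f1 and Mir17hg. In Myc-knockin tumors, the levels per kb were 17.02 for Thbs1, 10.6 for Bmpr2, 9.75 for Stat3, 7.52 for Tgfbr2, 5.95 for E2f1, 4.83 for Bcl2l11, 4.07 for Mir17hg and 3.57 for Rbl2. There all neighbours overlapped, and Mir17hg lay within the range of Rbl2, Bcl2l11 and E2f1.

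Beyond the 7, 34 other genes known as targets of the cluster were tested, and 4 of them (Csf1, Tnfaip3, Kat2b and Pkd1) were called lower and none higher, where 3.00% of all tested genes were called lower. The list had a median log2 fold change of −0.44, with 25 negative values, and 11 genes whose Myc-knockin values were all below the p53-driven values. Over all tested genes, which have 3' UTRs of all lengths, the median was 0.14 and 56.2% of the values were positive. The part of 3' UTR length in the values of the list was not tested. All Myc-knockin values were below the p53-driven values for 7.54% of the genes. Csf1 is counted in each of the figures of the list. The list was chosen with earlier results of these data known, and the study followed Csf1 after finding it lower in these same tumors. Neither the counts of the list nor that of Csf1 are thus independent of these data. Csf1 read 361, 201, 253 and 180 CPM in F187, F325, F331 and F368 and 30.8, 26.7, 49.4, 10.9 and 39.2 CPM in M351, M408, M9, M624 and M664. Its log2 fold change of −3.00 (SE 0.42, edgeR adjusted p = 0.0148) was lower than that of each of the 7 targets. Tnfaip3, an inhibitor of NF-κB signaling, fell by 2.03 (SE 0.45, edgeR adjusted p = 0.0328), Kat2b, a histone acetyltransferase, by 1.89 (SE 0.36, 0.0247) and Pkd1, which encodes polycystin 1, by 1.40 (SE 0.31, 0.0345), all on the log2 scale. Cdkn1a, the CDK inhibitor p21, had a log2 fold change of −0.82 (SE 0.37, edgeR adjusted p = 0.185). Without M624 and M664, Csf1 and Kat2b were called lower and Egr2, a zinc-finger transcription factor, higher (log2 fold change 1.74, edgeR adjusted p = 0.0431), while Tnfaip3 (edgeR adjusted p = 0.0839) and Pkd1 (0.0509) were not called. Leaving out F187, M351 or M624 ended the calls of both, and leaving out M664 that of Tnfaip3 (edgeR adjusted p from 0.0523 to 0.0615 for Tnfaip3 and from 0.0566 to 0.0622 for Pkd1).

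The partners of Tgfbr2 and Bmpr2 were next. The list of TGF-β and BMP signaling had 22 tested genes, Tgfbr2 and Bmpr2 among them. Of these 3 were called lower (Tgfbr1, Tgfbr2 and Acvr1) and 1 higher (Acvr2b). The median log2 fold change was −0.48, with 16 negative and 6 positive values. Of all tested genes 3.00% were called lower and 2.26% higher, and their median was 0.14. Tgfbr1 encodes the type I receptor that acts with TGFBR2. It read 197, 225, 621 and 212 CPM in F187, F325, F331 and F368 and 75.1, 66.5, 86.0, 45.9 and 70.6 CPM in M351, M408, M9, M624 and M664. The groups did not overlap, and the log2 fold change was −2.19 (SE 0.40, edgeR adjusted p = 0.0223). Acvr1, a type I receptor for BMPs, fell by 1.30 on the log2 scale (SE 0.30, edgeR adjusted p = 0.0390; 0.0554 without M624 and M664), and Acvr2b, an activin receptor, was higher by 2.04 (SE 0.39, 0.0252). Bmpr1b had the largest log2 fold change of the list in size, 2.32, and was not called (SE 1.04, edgeR adjusted p = 0.178). Id1 was at 1.38 (SE 0.43, 0.0747), not called by edgeR on all tumors but called by DESeq2. Of the signal transducers, none of Smad1, Smad2, Smad3, Smad4, Smad5 and Smad7 was called, with log2 fold changes from −0.76 for Smad7 to 0.43 for Smad3. Beyond F325, F331 and F368, the call of Acvr2b ended without F187 (edgeR adjusted p = 0.0508) and that of Acvr1 without each tumor but M9 (0.0506 to 0.0618).

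Around E2f1 and Rbl2, which it includes, the E2F and pocket protein set had 23 tested genes. Beside 2.26% of all tested genes called higher, 3 of the 23 were called, all higher. These were Ccne1, which encodes cyclin E1 (log2 fold change 2.09, SE 0.42, edgeR adjusted p = 0.0266), the helicase subunit gene Mcm5 (1.89, SE 0.42, 0.0347) and Tfdp1, which encodes the DP1 partner of E2F factors (1.49, SE 0.31, 0.0288). The list's median was 1.10, with 19 positive values, beside 0.14 and 56.2% positive over all tested genes. E2f1 itself was at 0.49. Leaving out F187 ended the calls of Mcm5 and Tfdp1 (edgeR adjusted p = 0.0544 and 0.0512). The 4 genes below 0 were the pocket protein genes Rb1 (−0.31), Rbl1 (−0.21) and Rbl2 (−0.52), and E2f5 (−0.02), none of them called. Of 7 proliferation markers, Aurkb (2.23, SE 0.52, edgeR adjusted p = 0.0380) and Ccnb1 (2.13, SE 0.50, 0.0400) were called higher, but not without M624 and M664 (0.0572 and 0.0680) or without F187 (0.0823 and 0.0754), nor Ccnb1 without M624 or M664 alone (0.0546 and 0.0514). Mki67 had a log2 fold change of 0.50 (SE 0.36, 0.392). The part of proliferation in the values of Mir17hg and E2f1 was not tested.

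By edgeR on all tumors, no call was made in the other sets around the members. Of 10 genes of the BCL2 family, Bcl2l11 among them, 0 were called by edgeR, and DESeq2 called Bax and Bbc3. The largest log2 fold changes were 1.88 for Bbc3 (SE 0.63, edgeR adjusted p = 0.0910) and 1.86 for Bax (SE 0.72, 0.129). Of 11 genes of STAT3 signaling, 0 were called by edgeR and Il6st, Jak1 and Lifr by DESeq2. Lifr, the receptor of leukemia inhibitory factor, ranged from 617 to 2028 CPM in p53-driven tumors and from 14.4 to 457 CPM in Myc-knockin tumors, without overlap, at a log2 fold change of −2.49 (SE 0.76, edgeR adjusted p = 0.0741). Of 13 tested genes of microRNA processing, 0 were called by edgeR and Ago3 by DESeq2. Drosha (−0.02, SE 0.28), Dgcr8 (−0.01, SE 0.23) and Dicer1 (0.33, SE 0.27) had small log2 fold changes, and Ago3 had −1.02 (SE 0.29, edgeR adjusted p = 0.0590). Larger in size were those of Lin28b (2.71, SE 1.70, edgeR adjusted p = 0.331), Tarbp2 (1.21, SE 0.54, 0.176) and Ago4 (−1.18, SE 0.55, 0.197). Other settings called some of these genes. Limma-voom called Il6st, Jak1, Lifr and Ago3, and edgeR with the background subtracted called Ago3. Without F187, M351, M408 and M9, edgeR called Bax, Bbc3, Bcl2, Il6st, Jak1, Lifr, Tarbp2, Tnrc6b and Tnrc6c. Without M408 it called Bbc3, Il6st and Jak1, without M9 Lifr and Tnrc6c, and with all genes of at least 1 count Lifr. Over all tested genes, 4112 had an unadjusted p under 0.05.

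**Figure D3:**
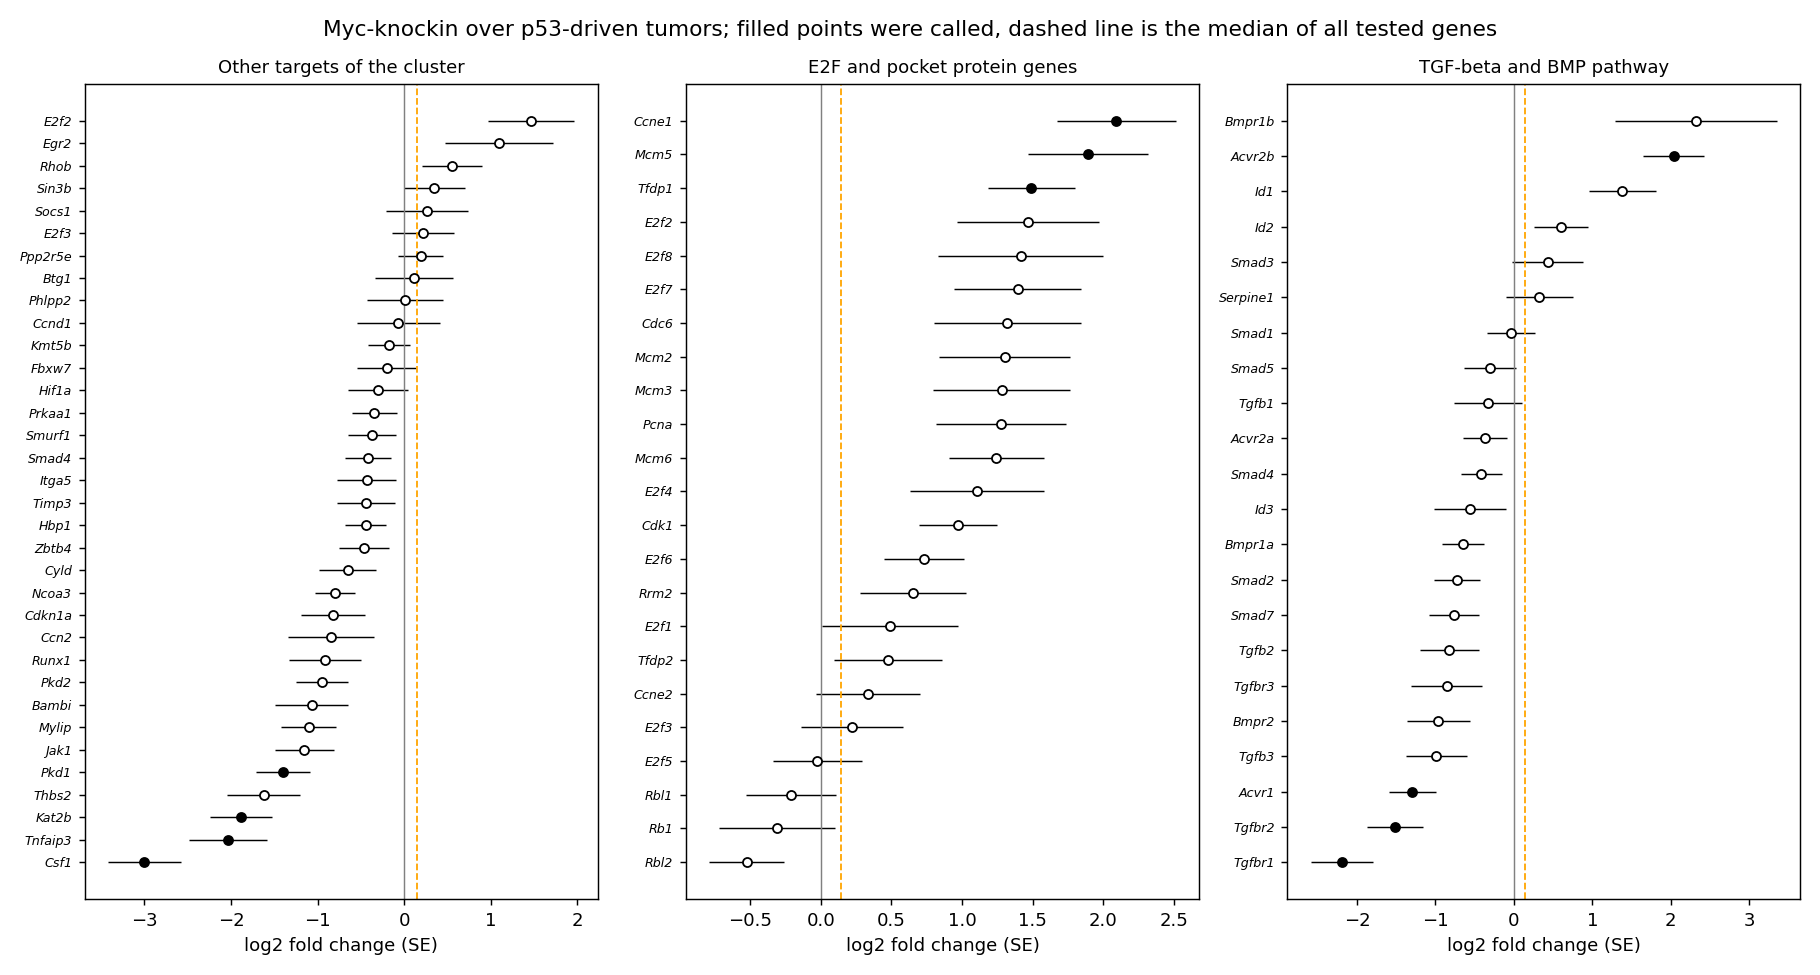
edgeR log2 fold change with its standard error for each tested gene of 3 lists: other targets of the cluster, E2F and pocket protein genes, and TGF-β and BMP signaling. Filled points were called; the calls are at the low end of the first list, at the high end of the second and at both ends of the third.

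Some markers of other cells differed between the genotypes. They stand beside the values above because TGF-β receptors, Thbs1, Stat3 and Csf1 are used by many cell types. Of 10 macrophage markers, 3 (Cd68, Csf1r and Tyrobp) were called lower, where 3.00% of all tested genes were. The summed level of the 10 was 926 to 1605 CPM in p53-driven tumors against 295 to 738 CPM in Myc-knockin tumors. Of their log2 fold changes 9 were negative, and that of Cd14 was positive (1.13, SE 0.50, edgeR adjusted p = 0.174). Of 6 osteoclast markers, 4 were called lower (summed, 2582 to 13528 against 109 to 2540 CPM). Of 9 osteoblast markers 1, Bglap, was called lower (summed over the 9, 70365 to 155400 against 4635 to 46868 CPM). Bglap itself read 17.7 to 83.3 against 0 to 3.98 CPM. Col1a1, which was not called, read 40517 to 89709 against 2098 to 20368 CPM. Leaving out F187, M351 or M624 ended the calls of Tyrobp and Ctsk, leaving out M408 that of Tyrobp, and leaving out M624 and M664 together that of Dcstamp (edgeR adjusted p from 0.0534 to 0.0755). None of the listed macrophage, osteoclast or osteoblast markers was at 0 in all tumors, and markers of bone were present in both groups. By edgeR on all tumors, 0 were called of 7 endothelial markers (349 to 484 against 90.2 to 470 CPM), 5 of pericytes and smooth muscle (373 to 577 against 222 to 412 CPM) and 5 of skeletal muscle. Of the platelet, T and B cell and red cell markers, 3 of 6, 1 of 7 and 2 of 5 had enough counts to be tested, and 0 were called. In other settings Pdgfrb was called lower by limma-voom, Kdr lower without M9, and without F187, M351, M408 and M9 Myh4 was called lower and Hba-a1 and Hbb-bs higher; the last 2 were also called higher with all genes of at least 1 count. The part of these cells in the values of the 8 genes was not tested.

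Lastly, the targets were related to Mir17hg across tumors. Because Mir17hg separated the genotypes, no pooled correlation of a target is given, and with 4 and 5 tumors no r is given for a single genotype. Instead, log2 CPM values minus the mean of the tumor's own genotype were compared over the 9 tumors, as a description. Stat3 had a Pearson r of 0.75 (Spearman rho 0.80), Thbs1 of 0.60 (0.52), Bcl2l11 of 0.36 (0.27), Tgfbr2 of 0.29 (0.15) and Bmpr2 of 0.06 (0.02). Rbl2 (r −0.11, rho −0.08) and E2f1 (−0.34, −0.35) were below 0, as was Csf1 (−0.48, −0.63). A two-sided exact permutation of the tumors within each genotype (2880 arrangements) gave p = 0.00729 for the r of Stat3, which was 0.0510 after Benjamini-Hochberg adjustment over the 7 targets and did not pass (0.0104 and 0.0729 for its rho), and unadjusted p from 0.166 to 0.846 for the r of the other 6 targets.

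The signs for Stat3, Thbs1 and Tgfbr2 were thus positive, the opposite of the difference between the genotypes. Without F187 and M9, the tumors whose centred Mir17hg lay farthest from its median, r was 0.52 for Stat3, 0.32 for Thbs1, 0.29 for Bcl2l11, 0.22 for Rbl2, 0.18 for Tgfbr2, −0.03 for Bmpr2, −0.33 for E2f1 and −0.02 for Csf1, so that the Csf1 relation rested on those tumors. Without M624 and M664 it was 0.72 for Stat3, 0.92 for Thbs1, 0.80 for Bmpr2, 0.70 for Tgfbr2, 0.59 for Bcl2l11, 0.24 for Rbl2, −0.94 for E2f1 and −0.57 for Csf1. The points share their library: F187, M351 and M9, the libraries with the most receptor-gene counts, were the 3 lowest tumors for Stat3 on these centred values. With scaling to library size alone, all 7 values were positive, from 0.51 for E2f1 to 0.92 for Stat3. Leaving out 1 tumor at a time turned the sign for Tgfbr2 (−0.02 without F331), Rbl2 (0.06 without M9 and 0.24 without M624), E2f1 (0.08 without F331) and Bmpr2 (−0.16 without F187, −0.12 without F331 and −0.05 without M408).

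**Figure D4:**
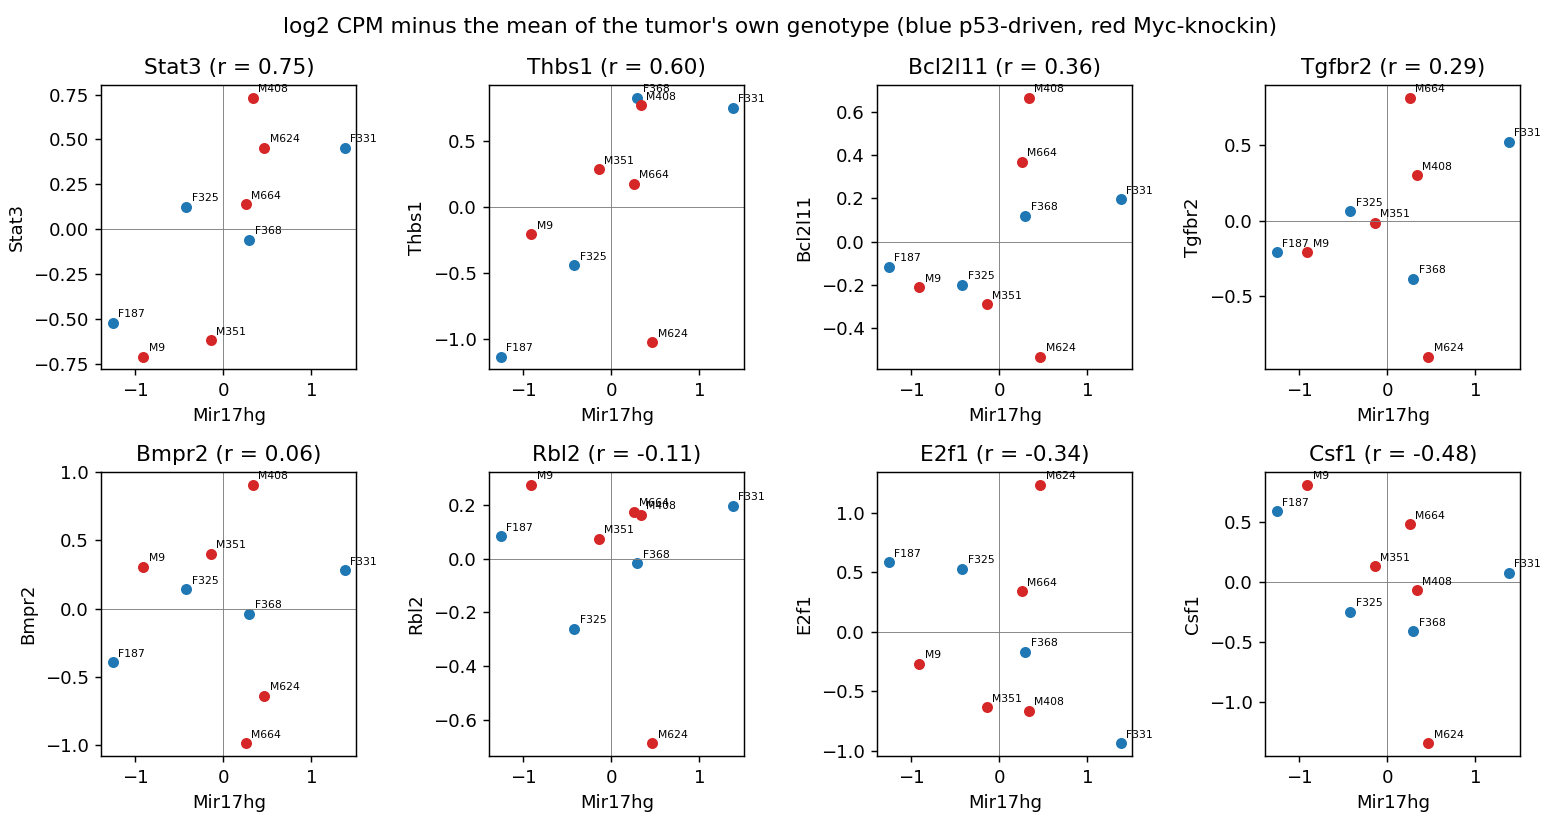
log2 CPM of each target, and of Csf1, against Mir17hg, both minus the mean of the tumor's own genotype (blue, p53-driven; red, Myc-knockin). The r of 0.75 for Stat3 is the highest of the 8 panels and the −0.48 of Csf1 the lowest.

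Over all 9 tumors, the tested genes outside the lists whose log2 CPM was most like that of Mir17hg were Rpl35a-ps2 (r = 0.98), Prorp (0.96), Pwp1 (0.96), Ppp2r3c (0.94) and Lysmd2 (0.94). Rpl35a-ps2 is a ribosomal protein pseudogene whose reads can be shared with its parent, and Prorp and Ppp2r3c overlap on opposite strands. Prorp, a protein subunit of the mitochondrial RNase P, had a log2 fold change of 1.61 (SE 0.37, edgeR adjusted p = 0.0371), and Lysmd2 of 2.28 (SE 0.47, 0.0289). These r values hold the difference between genotypes and were chosen as the highest of 15365 genes.

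**Figure D5:**
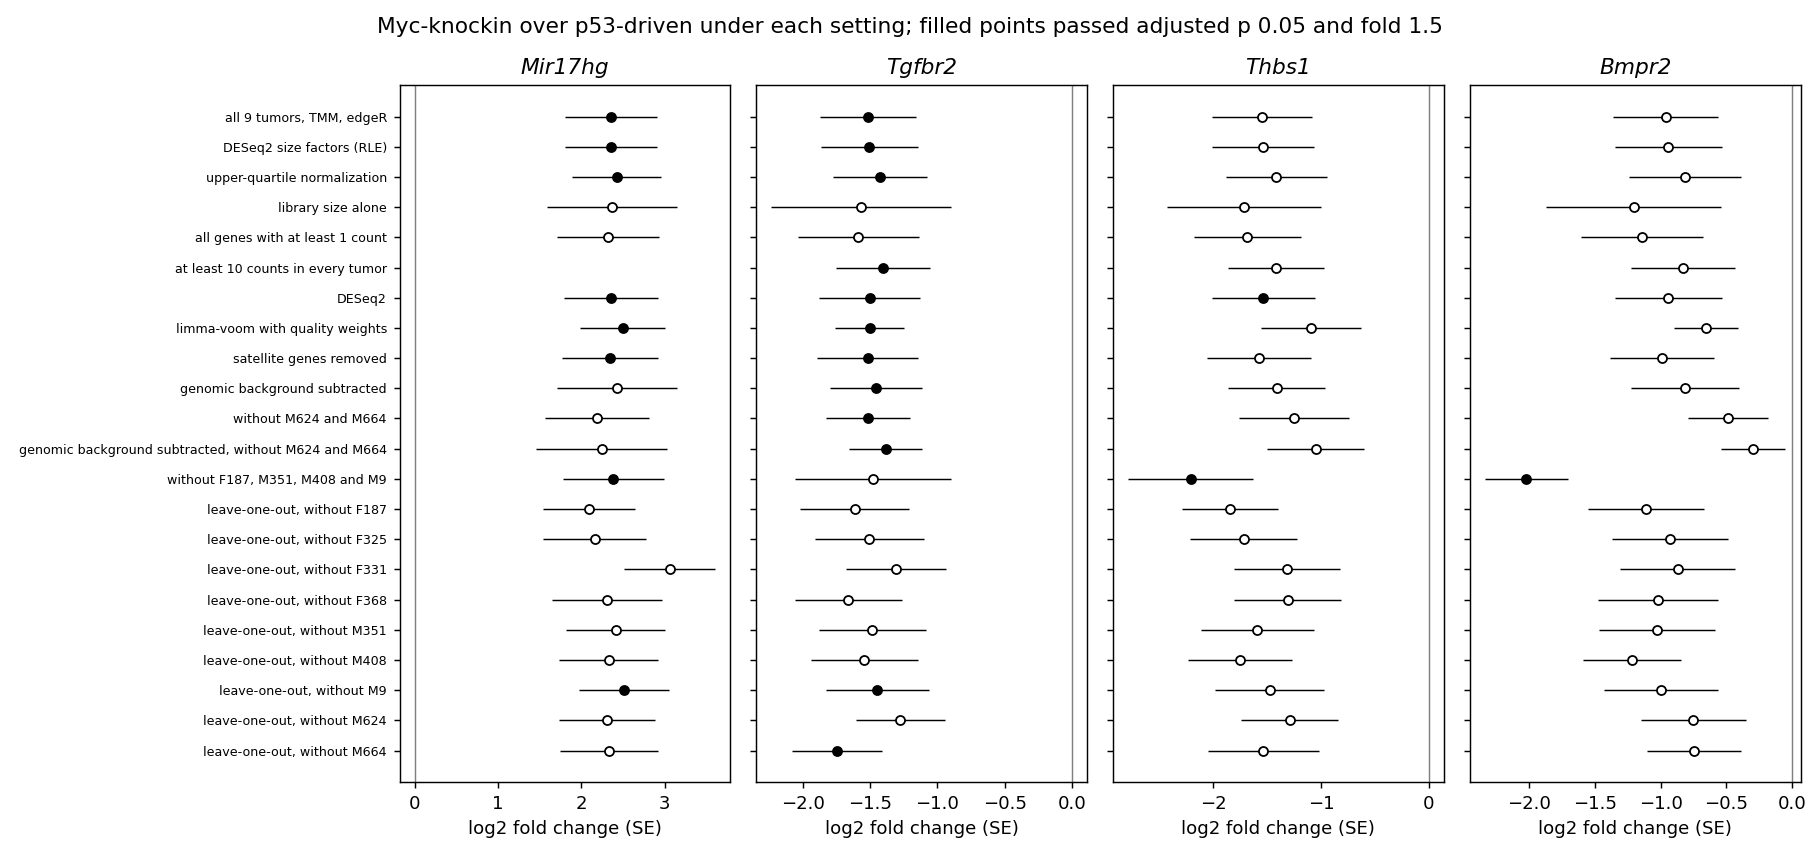
Log2 fold change, from edgeR unless another tool is named, with its standard error for Mir17hg, Tgfbr2, Thbs1 and Bmpr2 under the reported fit (top) and each alternative; filled points passed an adjusted p of 0.05 and a fold of 1.5. All points of a gene lie on 1 side of 0, while the filled points change from setting to setting.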

How the data were processed

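The authors deposited raw read counts per gene for 9 tumors. The submitters' processing notes name Trim Galore, STAR, featureCounts and the mm10 genome, and the counting settings are not given in the sources used here. No column was left unused for want of a sample, and the sample titles' replicate numbers are not carried by the columns.

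Counts were tested as deposited with edgeR 4.0.16 (quasi-likelihood, TMM, filterByExpr with a minimum count of 10, Benjamini-Hochberg over 15365 genes) in R 4.3.3, after a check on simulated data. The SE of an edgeR log2 fold change was taken as its absolute value divided by the square root of the test's F statistic. DESeq2 1.42.0 and limma-voom (limma 3.58.1) were alternatives. Log2 CPM used a prior count of 2. Exact permutation tests were two-sided. Exon lengths and 3' UTRs were read from GENCODE M21 (GRCm38), with 55034 of 55367 genes matched, and microRNAs from RefSeq. The genes, gene lists and markers were chosen with earlier results of these data known. Named were the 8 genes, Myc, Csf1, called genes of the lists with those of largest change, and the 5 genes most like Mir17hg; the microRNA host Mcm7, Cdkn1a, Mki67, the Smads, the pocket protein genes and the microRNA processing genes were added for their roles after their values were seen. A member of the list of other targets is not reported here and was left out of its counts.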

Additional observations from a re-analysis of the deposited data

Results flagged for a closer look

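Rbl2 in the Myc-knockin tumor M624 stood apart: its level was 16.3 CPM where the 4 remaining tumors had 27.7 to 31.9 CPM, and its gap to the nearest tumor was 0.733 of the range of the group. This was 1 of 20 groups of tumors examined in this way, where chance alone flags about 1 in 20. M624 is 1 of the 2 libraries with almost no Rn7sk. Rbl2 had a log2 fold change of −0.33 once M624 and M664 were left out, and it was not called in either fit.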

How the results depend on the processing

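Mir17hg was higher in every alternative, but its call ended with library size alone (log2 fold change 2.37, edgeR adjusted p = 0.148), with all genes of at least 1 count (2.32, 0.0630), with receptor-gene background subtracted (2.43, 0.0574), without M624 and M664 (2.19, 0.0744) and with both of the last 2 together (2.24, 0.117), a setting added after seeing the data. Leaving out 1 tumor at a time gave 2.09 to 3.06; it was not tested with at least 10 counts in every tumor. The number of the 7 targets called was 0 with library size alone and with all genes of at least 1 count, 2 with DESeq2 (Tgfbr2 and Thbs1) and 2 without F187, M351, M408 and M9 (Bmpr2 and Thbs1), and 0 to 1 with 1 tumor left out. Over all genes, 809 calls became 136 with library size alone, 494 with all genes of at least 1 count, 1316 with at least 10 counts in every tumor, 2670 with DESeq2, 1663 with limma-voom, 4595 without F187, M351, M408 and M9, and 5 to 1588 with 1 tumor left out. Bcl2l11 turned to −0.00094 with all genes of at least 1 count, −0.034 without F187, M351, M408 and M9 and −0.10 without M408 (−0.10 to 0.26 with 1 tumor left out); E2f1 turned to −0.21 without M624 and M664 and −0.19 with the background subtracted too. With library size alone, r to Mir17hg within genotypes was 0.85 for Bcl2l11, 0.80 for Tgfbr2, 0.85 for Rbl2, 0.51 for E2f1, 0.71 for Bmpr2 and 0.92 for Stat3; without M624 and M664, added after seeing the data, it was 0.70 for Tgfbr2, 0.92 for Thbs1, 0.24 for Rbl2, −0.94 for E2f1 and 0.80 for Bmpr2; correlations pooled over the genotypes were not run as results. The cause of these changes was not tested. No paired analysis was possible because the count columns carry no replicate numbers. Counting error bears on Mir17hg, which had 2 to 22 counts in F187, F325, F368, M351 and M9.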

Other observations

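Seed matches were also set against the fold changes of all tested genes, as a description with no test. The 1947 genes with a miR-17/20a match in the longest annotated 3' UTR had a median log2 fold change of −0.12, and the 11272 without it 0.20. Their 3' UTRs were longer, with a median of 2584 against 1069 bases, and genes with long 3' UTRs had lower fold changes whether or not they held a match. In the shortest quartile of 3' UTR lengths the medians were 0.37 with and 0.47 without the match, in the next 0.03 and 0.24, in the third −0.12 and 0.05, and in the longest −0.19 and −0.07. The quartiles did not make lengths equal. In each of them the genes with the match had the longer 3' UTRs, with medians of 407 against 284 bases in the shortest and 3882 against 3351 in the longest. Matches to the miR-19 and miR-92a seeds gave the same order in each quartile, with medians of −0.20 and −0.07 for miR-19 and −0.27 and −0.08 for miR-92a in the longest quartile; for miR-18a the longest quartile gave −0.15 and −0.10. Of the genes with a miR-17/20a match 5.14% were called lower and 1.75% higher, beside 3.00% and 2.52% of the genes without it.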
